A study of Mus musculus with 27 samples.

Results

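Wnt ligands, the receptors that read them and the secreted proteins that bind either side were followed in mouse colon with and without the transcription factors Foxa1 and Foxa2. The genes were chosen by symbol, with earlier results of these data known. They were every Wnt, Frizzled, R-spondin, Sfrp and Dkk gene, with Frzb, Wif1, Lrp5, Lrp6, Ror1, Ror2 and Ryk. This gave 48 of the 35975 genes measured, namely 19 Wnt ligands, 4 R-spondins, 15 receptors or co-receptors and 10 secreted modulators. All 48 are annotated as protein coding.

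Wnt proteins are lipid-modified signals that act over short distances, and in the intestine they come from both epithelium and the underlying stroma. In the beta-catenin branch, a Frizzled receptor together with Lrp5 or Lrp6 stabilises beta-catenin, which keeps crypt stem cells dividing. R-spondins amplify that signal by preserving Frizzled at the cell surface. Other Wnts act through Ror1, Ror2 or Ryk on cell shape and movement, and Sfrp, Dkk and Wif1 proteins blunt the signal outside the cell.

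Poly(A) RNA was sequenced from whole proximal and distal colon segments of 7 control and 7 Foxa1/2-deficient mice of mixed background. Both segments were available from 13 mice, which gave 7 proximal libraries of each genotype, and 6 distal libraries of control and 7 of deficient mice. The deficient mice were Villin1-Cre; Foxa1lox/lox; Foxa2lox/lox, 9 to 13 months old, and 2 of the 7 were labelled female. The Villin1 promoter drives Cre in intestinal epithelium, so stromal cells of these mice are not targeted. All 7 control mice were labelled male and were 9 to 18 months old. Of these, 5 carried the floxed alleles without Cre (Foxa1lox/lox; Foxa2lox/lox), replicate 1 was Villin1-Cre; Foxa1lox/wt; Foxa2lox/wt, and replicate 6 was Villin1-Cre; Foxa1lox/lox; Foxa2lox/wt. Sex, age and Cre therefore differ in part between the genotypes. Deficient replicate 3 is labelled male, but 4 Y-linked genes summed to 2.98 and 3.59 CPM (counts scaled to library size) in its libraries, against 141 to 234 CPM in the other libraries labelled male and 2.61 to 6.27 CPM in those labelled female. Without this mouse 8 of the 9 members called in proximal colon (all but Sfrp2) were still called, as were all 5 in distal colon with Wnt5a in addition, all 3 whose genotype effect differed between segments, and 14 of the 19 called between segments of deficient mice (all but Wnt2b, Wnt4, Fzd1, Fzd9 and Sfrp1).

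Libraries held 18472867 to 56744113 estimated counts, with a median of 40556273. Foxa1 stood at 10.1 to 14.5 CPM in deficient proximal libraries and 50.9 to 69.4 in 6 of the 7 proximal control libraries, and control replicate 6, which has no wild-type Foxa1 allele, was at 13.9. Its distal library had 7.6 CPM of Foxa1, within the distal deficient range of 7.21 to 10.5. The other distal control libraries had 42.4 to 80.8 CPM. Foxa2 was at 1.23 to 1.75 CPM in proximal deficient against 6.05 to 15.7 in proximal control libraries, and at 0.326 to 1.37 against 15.5 to 30.4 CPM in distal colon. All 10 epithelial and all 10 smooth muscle markers passed the low-count filter in both segments. Small-intestinal enterocyte markers summed to 19.7 to 98.1 CPM in proximal control and 282 to 1723 CPM in proximal deficient libraries, and 7 of the 7 tested were higher; in distal colon the sums were 9.36 to 30 and 42 to 138 CPM. Of 7 goblet cell markers 3 were lower in deficient proximal colon, with a list median log2 fold change of -0.67 and sums of 6257 to 9794 CPM in control against 3080 to 7148 CPM in deficient libraries. In distal colon edgeR called none of the 7 and DESeq2 1; all 7 had negative log2 fold changes (median -0.52), 4 of them at an unadjusted p under 0.05. The part of these cell types in the Wnt gene results was not tested.

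The receptor side was far more abundant than the ligand side in control colon. Levels between genes are given as TPM, a share of transcripts corrected for transcript length. Summed over the family, receptors reached 143 ± 18.8 TPM (SD, n = 7) in proximal and 123 ± 16.6 TPM (SD, n = 6) in distal control colon. Ligands summed to 12.6 ± 2.82 TPM (SD, n = 7) in proximal and 5.47 ± 0.814 TPM (SD, n = 6) in distal control colon, and these ranges, 8.86 to 17.9 and 4.1 to 6.43 TPM, did not overlap. Secreted modulators summed to 16.6 ± 4.18 and 12.6 ± 3.02 TPM, and R-spondins to 2.55 ± 0.711 and 3.09 ± 1.14 TPM, in the same proximal and distal groups (SD, n = 7 and n = 6).

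Ryk, an atypical Wnt receptor, led in proximal control colon at 38 ± 1.85 TPM (SD, n = 7). It was followed by Fzd5, a Frizzled of the crypt epithelium, at 31 ± 5.51, by the co-receptor Lrp6 at 27.7 ± 4.59 and by its relative Lrp5 at 17.7 ± 4.76 TPM. Each of these overlapped its neighbour in the order. Below them came Dkk3 (8.28 TPM), a divergent Dkk protein, Fzd1 (6.78), Wnt5a (5.2), Fzd8 (4.95), the Wnt-binding inhibitor Sfrp1 (4.01) and Fzd7 (3.81), again overlapping from one to the next. In distal control colon Lrp6 led at 44.9 ± 10.2 TPM (SD, n = 6), followed by Ryk (25.2), Fzd5 (20.5) and Lrp5 (12.3 TPM). Among these first 14 ranks the single gap without overlap lay between Lrp5, whose lowest distal library had 10.2 TPM, and Fzd1, whose highest had 7.47 TPM. Wnt5a was the most abundant ligand in both segments by mean, at 5.2 ± 1.65 TPM proximally (SD, n = 7) and 1.8 ± 0.283 TPM distally (SD, n = 6).

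**Figure D1:**
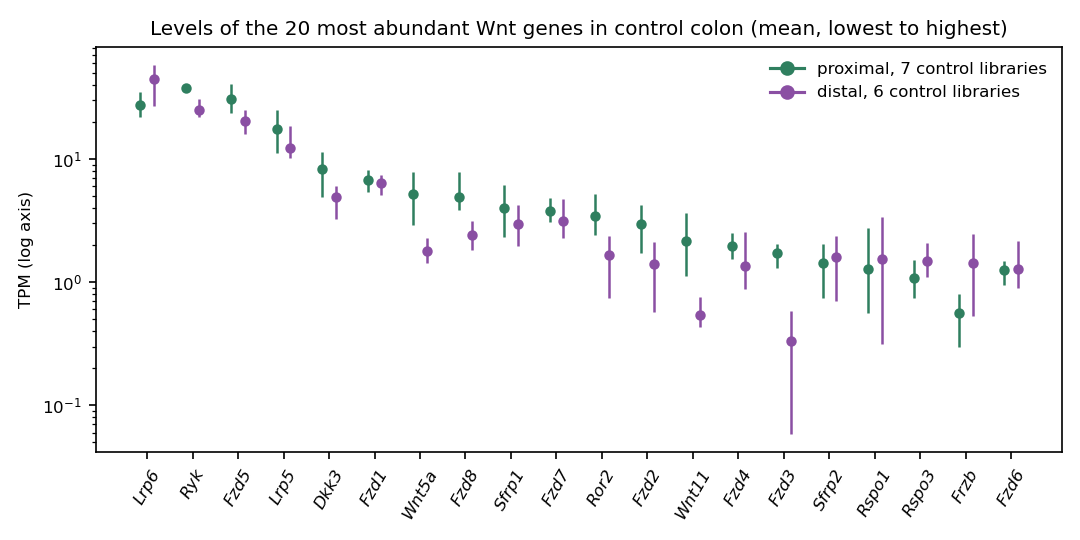
Levels of the 20 most abundant Wnt genes in control colon on a log TPM axis; points are means and lines run from the lowest to the highest of 7 proximal or 6 distal libraries. Lrp6, Ryk, Fzd5 and Lrp5 stand above the other members, and Wnt5a, Wnt11 and Fzd3 are lower in distal than in proximal colon.

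At the other end, 11 members passed the low-count filter in no comparison: Wnt1, Wnt2, Wnt3a, Wnt7a, Wnt7b, Wnt8a, Wnt9b, Wnt10a, Rspo4, Dkk1 and Dkk4. The highest count any of them reached in a library was 19, for Dkk1, and Wnt7a reached 1. Some of these barely detected ligands sit beside one that was tested: Wnt3a, with at most 2 counts, lies 16.2 kb from Wnt9a, and Wnt9b, with at most 9 counts, lies 24.3 kb from Wnt3, both on chromosome 11 and on opposite strands. Wnt10a, 6.2 kb from Wnt6, had at most 6 counts, and Wnt1, 11.7 kb from Wnt10b, at most 4.

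With loss of Foxa1 and Foxa2, proximal colon gained Wnt3, Wnt5a, Wnt5b and Wnt9a among the ligands and lost Wnt11, while among receptors Fzd10 and Fzd1 fell. Of the secreted inhibitors Sfrp2 rose and Wif1 fell. The test was edgeR's quasi-likelihood test with Benjamini-Hochberg adjustment over all genes tested, and a gene was called at an adjusted p under 0.05. Of the 36 members tested, 5 were higher and 4 lower, where 5.52% of all 16787 genes tested were higher and 6.17% lower. By role, 4 of 10 ligands were higher and 1 lower, 2 of 15 receptors were lower and none higher, 1 of 8 modulators moved each way, and 0 of 3 R-spondins was called. Among members not called, Rspo2, Fzd3, Fzd4 and Fzd9 were lower at an unadjusted p under 0.05, and Fzd5 and Dkk2 were higher. DESeq2 called Fzd3, Fzd4 and Fzd9, but not Rspo2, Fzd5 or Dkk2. Fzd5 was called among mice labelled male (0.35, adjusted p = 0.0334) and without control replicate 6 (0.31, adjusted p = 0.0388). The median log2 fold change was 0.07 over the tested members and 0.01 over all genes. Whole tissue was sequenced, so fewer cells of a type and less RNA per cell cannot be told apart.

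In distal colon Wnt3 rose again, as did the receptors Fzd7, Fzd8 and Fzd10, and Fzd1 fell. Of 33 members tested, 4 were higher and 1 lower, against a background of 2.7% higher and 3.37% lower among 16041 genes. Calls were 1 of 9 ligands, 4 of 15 receptors, 0 of 7 modulators and 0 of 2 R-spondins. Among members not called, Wif1 and Fzd9 were lower at an unadjusted p under 0.05, and Wnt5a and Ror1 were higher. DESeq2 called Wif1 (adjusted p = 0.0242), Fzd9 and Ror1, but not Wnt5a. Neither R-spondin passed the unadjusted cut. The median log2 fold change was 0.01 both over the tested members and over all genes. Both genotype comparisons include segments of the same mice. Beside these receptor changes, all 10 smooth muscle markers had negative distal log2 fold changes (median -0.65), and their sums were 1198 to 3696 CPM in control and 518 to 1915 CPM in deficient libraries. Neither edgeR nor DESeq2 called any of them, and 4 passed an unadjusted p under 0.05 (Des, Tagln, Cnn1 and Myl9). Enteric neuron and glia markers had a distal median of -0.64, with sums of 19.6 to 41.3 CPM in control and 15.4 to 35.5 CPM in deficient libraries; edgeR called 0 of 10 and DESeq2 1, Uchl1, and 3 passed an unadjusted p under 0.05. In proximal colon the medians of these lists were 0.16 and -0.02, and none of their genes passed an unadjusted p under 0.05 or was called by edgeR or DESeq2. Their part in the Wnt gene results was not tested.

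**Figure D2:**
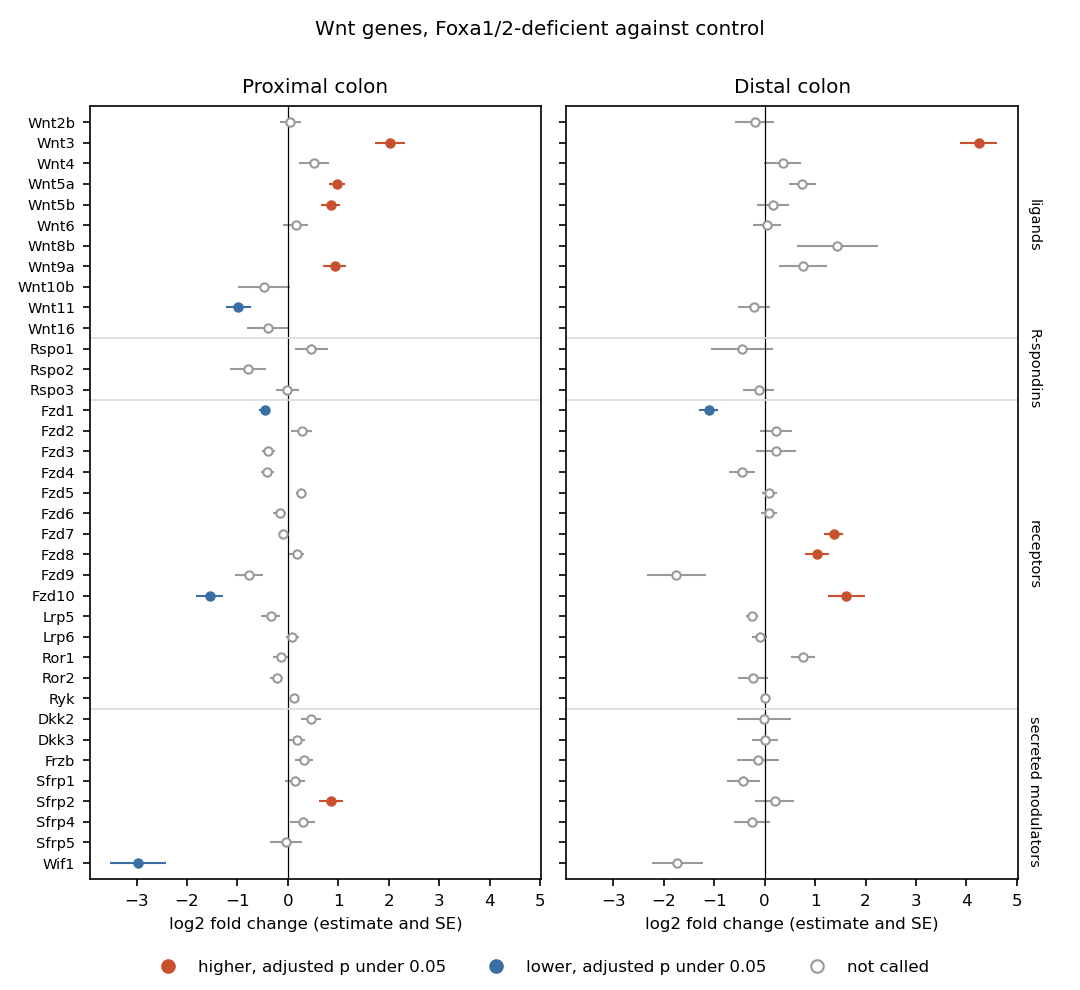
Log2 fold changes of the tested Wnt genes, Foxa1/2-deficient against control, with standard errors, in proximal (left) and distal (right) colon; a gene with no point in a panel was not tested there. Filled points passed an adjusted p under 0.05: Wnt3 is far to the right in both panels, Fzd10 is to the left proximally and to the right distally, and Fzd1 is to the left in both.

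Wnt3, a beta-catenin-activating ligand best known from Paneth cells of the small intestine, lies at chr11:103774150-103817957 (GRCm38, plus strand). Proximal control libraries had 0.0704, 0.214 and 0.348 CPM as lowest, median and highest values, and proximal deficient libraries had 0.591, 0.778 and 1.17. In distal colon the control values were 0.0349, 0.0544 and 0.238 CPM and the deficient values 1.26, 1.44 and 2.24. The ranges of the genotypes did not overlap in either segment, and the distal deficient libraries were the highest of all 4 groups. The log2 fold change was 2.02 ± 0.29 (SE, adjusted p = 0.000188) in proximal and 4.24 ± 0.37 (SE, adjusted p = 1.35e-05) in distal colon. These levels rest on few reads: 3 to 14 estimated counts a library in proximal control, 25 to 59 in proximal deficient, 1 to 6 in distal control and 22 to 72 in distal deficient colon. In distal colon Wnt3 passed the low-count filter through the deficient libraries alone. In proximal colon too few control libraries reached the filter for Wnt3 to pass without the deficient ones. That Wnt3 was tested between genotypes thus depended on the group where it is high.

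Of 5 Paneth cell markers 2 were tested in each segment, and Mmp7 was the 1 called, lower in proximal and higher in distal colon. The summed level of the 5 was 3.05 to 17.2 CPM in proximal control and 2.52 to 55.9 in proximal deficient libraries; the high value is deficient replicate 3, and the others reached 10.1 CPM. In distal colon it was 4.05 to 27.8 and 1.41 to 15.7 CPM, with Defa17 at 0 in every distal library. The part of Paneth cells in the Wnt3 result was not tested.

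The RefSeq promoter table (GRCm38.p6) held 32 of the 48 members with 35 start sites, and the 250 bases before each start were searched on both strands. The forkhead core, TGTTTAC or TATTTAC, was in 5.76% of all 32851 promoters and in 0 of the 35 member promoters. A TCF/LEF core, CTTTGAT or CTTTGAA, which is the letter pattern bound by the partners of beta-catenin, was in 7.48% of all and 3 of 35 member promoters, those of Wnt5b, Wnt11 and Dkk1. Member promoters had a median GC content of 66.8% against 52.4% for all promoters. The stretch upstream of Wnt3, the member with the largest log2 fold change between genotypes, is shown up to its first annotated exon (chr11:103773925-103774149, plus strand) and holds none of these letters.
Wnt3: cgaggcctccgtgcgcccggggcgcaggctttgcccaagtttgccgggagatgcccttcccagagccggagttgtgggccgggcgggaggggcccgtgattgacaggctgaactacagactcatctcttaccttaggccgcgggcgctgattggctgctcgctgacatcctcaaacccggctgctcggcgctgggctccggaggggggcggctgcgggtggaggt

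Wnt5a, a ligand of stromal cells that mostly acts outside the beta-catenin branch, had 10.9, 14.4 and 20.5 CPM as lowest, median and highest proximal control values and 19.4, 27.6 and 38.6 CPM in proximal deficient colon. Only the highest control library, replicate 6, reached into the deficient range. The log2 fold change was 0.97 ± 0.16 (SE, adjusted p = 0.000756). In distal colon Wnt5a had 4.3, 7.59 and 8.49 CPM in control and 3.95, 12.2 and 15.1 CPM in deficient libraries, with a log2 fold change of 0.75 ± 0.26 (SE, adjusted p = 0.128). Deficient replicate 3 was the low distal library; without it the value was 0.9 (adjusted p = 0.00879). The effect was not shown to differ between segments (difference -0.25 ± 0.31, SE, adjusted p = 0.797).

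Its close relative Wnt5b had 1.17, 1.46 and 2.42 CPM in proximal control and 2.24, 2.66 and 4.14 CPM in proximal deficient libraries. The ranges overlapped narrowly and the log2 fold change was 0.85 ± 0.19 (SE, adjusted p = 0.00628). With mice of 9 to 13 months alone it was no longer called (adjusted p = 0.0833). Distal levels were 0.993 to 2.26 CPM in control and 0.848 to 2.85 CPM in deficient libraries, with a log2 fold change of 0.17 ± 0.32 (SE, adjusted p = 0.833).

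For Wnt9a, a less abundant ligand, proximal control libraries had 0.249, 0.586 and 0.918 CPM and proximal deficient libraries 0.899, 1.23 and 1.3 CPM. All deficient libraries but the lowest were above the control range, and the log2 fold change was 0.93 ± 0.23 (SE, adjusted p = 0.0127). Among mice labelled male, deficient replicate 3 included, the adjusted p was 0.0507. In distal colon the log2 fold change was 0.76 ± 0.48 (SE, adjusted p = 0.45).

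Wnt11, a ligand of the beta-catenin-independent branch at chr7:98835112-98855195, went the other way. It had 0.868, 1.83 and 2.66 CPM in proximal control and 0.599, 0.856 and 1.38 CPM in proximal deficient libraries. The lowest control libraries, replicates 6 and 1, lay inside the deficient range. The log2 fold change was -0.98 ± 0.25 (SE, adjusted p = 0.0179), and it missed the threshold with limma on the authors' deposited matrix (adjusted p = 0.0521). Distal levels were 0.331 to 1.1 CPM in control and 0.28 to 0.895 CPM in deficient libraries, with a log2 fold change between genotypes of -0.21 ± 0.32 (SE, adjusted p = 0.788).

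Wnt11 and Wnt5b, which moved in opposite directions in proximal colon, both carry the TCF/LEF core CTTTGAT before a start site. In Wnt11 (chr7:98834862-98835111, plus strand) it is read on the other strand, with its first base 51 bases before the start. In Wnt5b it lies on the sense strand 71 bases before the innermost of 3 start sites (chr6:119449387-119449636, minus strand). The core is in capitals.
Wnt11: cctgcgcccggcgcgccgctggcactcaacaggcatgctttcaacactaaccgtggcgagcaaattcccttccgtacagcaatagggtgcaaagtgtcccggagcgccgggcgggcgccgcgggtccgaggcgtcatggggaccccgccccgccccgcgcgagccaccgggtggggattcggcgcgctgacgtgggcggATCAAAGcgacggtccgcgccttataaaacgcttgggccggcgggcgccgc
Wnt5b: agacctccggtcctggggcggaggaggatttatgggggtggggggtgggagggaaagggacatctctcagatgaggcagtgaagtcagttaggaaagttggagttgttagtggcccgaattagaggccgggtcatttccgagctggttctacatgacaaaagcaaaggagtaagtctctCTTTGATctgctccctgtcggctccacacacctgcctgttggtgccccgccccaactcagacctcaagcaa

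The fibroblast markers summed to 478 to 753 CPM in proximal control and 603 to 906 CPM in proximal deficient libraries. Of the 10, 2 were called higher, and the median log2 fold change was 0.3. All 10 had positive proximal log2 fold changes, 4 of them at an unadjusted p under 0.05. Their part in the ligand results was not tested. In distal colon edgeR called none of the 10, and 2 were lower at an unadjusted p under 0.05. Markers of interstitial cells of Cajal summed to 70.2 to 104 CPM in proximal control and 38 to 57.8 CPM in proximal deficient libraries, with 2 of 4 lower (Kit and Ano1) and 1 higher (Hcn4). In distal colon their sums were 188 to 374 CPM in control and 263 to 494 CPM in deficient libraries, with Hcn4 higher, none lower and a median log2 fold change of 0.11.

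In the genotype comparisons within a segment the remaining ligands were not called where they were tested, which for Wnt10b and Wnt16 was proximal colon alone. Wnt2b, a stromal ligand that activates beta-catenin, was at 2.12 to 4.02 CPM in proximal control and 1.89 to 4.32 CPM in proximal deficient colon (log2 fold change 0.05 ± 0.2, SE). Wnt4 had a log2 fold change of 0.52 ± 0.3 (SE) in proximal and 0.36 ± 0.37 (SE) in distal colon. Wnt8b, tested in distal colon alone, had the widest error, 1.44 ± 0.8 (SE, adjusted p = 0.382). Among R-spondins Rspo3, made by stromal cells beneath the crypt, was at 1.31 to 3.1 CPM in proximal control and 1.27 to 2.82 CPM in proximal deficient colon, a log2 fold change of -0.01 ± 0.22 (SE). Rspo2 had the largest R-spondin difference, -0.79 ± 0.35 (SE, adjusted p = 0.19), at levels under 1 CPM.

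Fzd10, a Frizzled receptor at chr5:128600844-128604093, changed sign between the segments. Proximal control libraries had 1.04, 1.42 and 2.26 CPM and proximal deficient libraries 0.238, 0.492 and 0.953 CPM. In distal colon the control values were 0.13, 0.362 and 0.484 CPM and the deficient values 0.466, 1.04 and 1.5 CPM. The proximal ranges did not overlap, and in distal colon the lowest deficient library lay just under the highest control. Log2 fold changes were -1.55 ± 0.27 (SE, adjusted p = 0.00098) in proximal and 1.62 ± 0.37 (SE, adjusted p = 0.016) in distal colon. The difference between them was 3.26 ± 0.51 (SE, adjusted p = 0.0054). Counts were 42 to 127 a library in proximal control and 3 to 19 in distal control colon. In distal colon too few control libraries reached the low-count filter for Fzd10 to pass without the deficient ones, the group where it is high. The distal call was lost without Cre-carrying controls (adjusted p = 0.0597), among mice labelled male (0.0726) and among mice of 9 to 13 months (0.0685), all with the same sign.

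Fzd7, a Frizzled known as a Wnt receptor of intestinal stem cells, differed by genotype in distal but not measurably in proximal colon. Its proximal values were 11.1, 11.9 and 15.2 CPM in control and 9.27, 11.4 and 13 CPM in deficient libraries. Distal control libraries had 8.91, 12.1 and 15.8 CPM and distal deficient libraries 18.5, 34.8 and 41.8 CPM. All 7 distal deficient libraries were above every other library of the series. The log2 fold change was -0.09 ± 0.09 (SE, adjusted p = 0.637) in proximal and 1.37 ± 0.19 (SE, adjusted p = 0.000514) in distal colon, and the difference was 1.45 ± 0.2 (SE, adjusted p = 0.00339). The upstream 250 bases (chr1:59481897-59482146, plus strand, 65.2% GC) are shown because Fzd7 was the member with the smallest p for that difference, and none of the letters searched is in them.
Fzd7: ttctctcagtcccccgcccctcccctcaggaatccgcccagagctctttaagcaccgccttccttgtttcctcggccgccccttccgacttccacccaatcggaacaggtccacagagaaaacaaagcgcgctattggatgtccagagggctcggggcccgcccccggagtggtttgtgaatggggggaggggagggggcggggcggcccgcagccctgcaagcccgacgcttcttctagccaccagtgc

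Wnt3 was the third member called for a genotype effect that differed between segments. The difference, distal minus proximal, was 2.16 ± 0.39 (SE, adjusted p = 0.0131), both effects being positive. Its distal control side rests on 16 counts over 6 libraries, 4 of them at 3 or fewer, so the size of this difference is poorly determined. It was not called without control replicate 2 (adjusted p = 0.056). Across all 17595 genes tested for this difference 0.432% had a higher effect in distal colon and 0.58% a lower one; among the 37 members 3 were higher and 0 lower. At an unadjusted p under 0.05, Fzd1 was lower, with -0.66 ± 0.19 (SE, adjusted p = 0.143), and DESeq2 called it (adjusted p = 0.0347). Ror1 (0.96 ± 0.31, SE, adjusted p = 0.192) and Fzd8 were higher at that cut, and DESeq2 called neither.

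The ratio of distal to proximal CPM within single mice, each level with 0.1 CPM added, shows the values behind these differences. For Fzd7 the log2 ratio ran from -0.37 to 0.51 in the 6 control mice and from 0.58 to 1.88 in the 7 deficient mice. Fzd10 ran from -2.61 to -1.2 in control and from -0.49 to 2.21 in deficient mice, and Wnt3 from -1.22 to -0.17 and from 0.28 to 1.5. For these 3 genes no deficient mouse fell within the control range. They are the 3 members called for the difference in these same libraries, so their separation is no further evidence. The share of all genes that separate this way was not counted. The median Wnt3 level of distal control libraries, 0.0544 CPM, was under the 0.1 CPM added, so its control range depends in part on that addition. Fzd8 ran from -1.35 to -0.18 and from -0.7 to 1.11, which overlap.

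**Figure D3:**
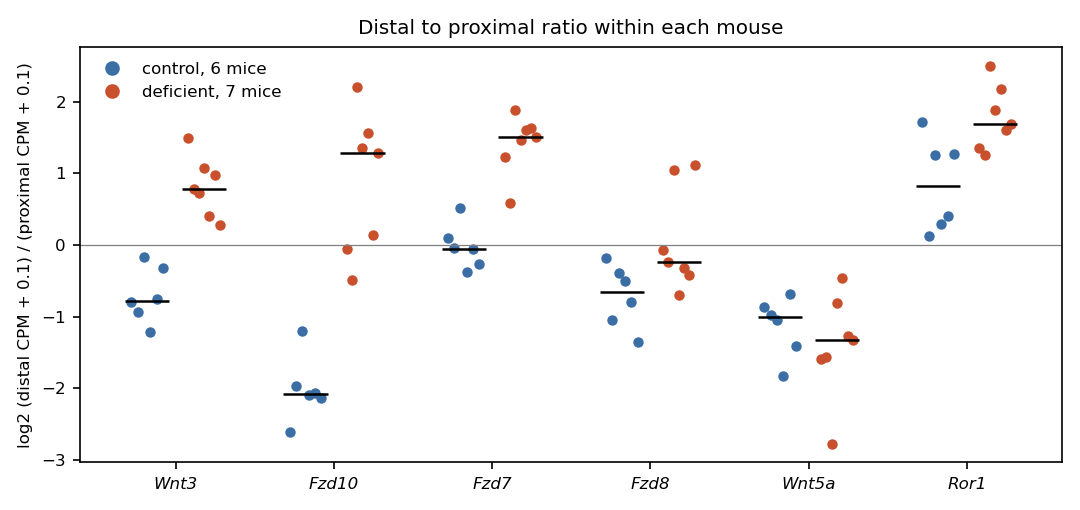
Log2 ratio of distal to proximal level in each mouse with both segments, for 6 Wnt genes; points are mice, bars are medians, and 0.1 CPM was added to each level. For Wnt3, Fzd10 and Fzd7, called for a genotype effect that differed between segments in the same libraries, the control and deficient mice separate. For Fzd8, Wnt5a and Ror1 they overlap.

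Fzd8, a Frizzled, was at 9.01, 13 and 16.1 CPM in distal control and 16, 21.4 and 47.4 CPM in distal deficient libraries. The ranges touched, and deficient replicate 7 was the high library. The log2 fold change was 1.04 ± 0.24 (SE, adjusted p = 0.0154), and with mice of 9 to 13 months alone it missed the threshold (adjusted p = 0.0751). In proximal colon the values were 18.2, 18.7 and 32.9 CPM in control and 16.3, 25.5 and 26.6 CPM in deficient libraries, with a log2 fold change of 0.17 ± 0.14 (SE, adjusted p = 0.535). A difference between the segments was not shown (0.77 ± 0.31, SE, adjusted p = 0.329).

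Fzd1, a widely expressed Frizzled, was the receptor lower in both segments. Proximal values were 18, 20 and 22.1 CPM in control and 11.7, 13.9 and 18.3 CPM in deficient libraries. Distal values were 19.6, 22.1 and 29.7 CPM in control and 6.39, 12.3 and 13.9 CPM in deficient libraries. The distal ranges were apart and the proximal ranges overlapped by 1 library on each side. Log2 fold changes were -0.46 ± 0.11 (SE, adjusted p = 0.00754) and -1.11 ± 0.19 (SE, adjusted p = 0.00221).

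The co-receptors and the more abundant receptors showed small differences. Lrp6 had log2 fold changes of 0.09 ± 0.12 (SE) in proximal and -0.1 ± 0.15 (SE) in distal colon, Ryk 0.12 ± 0.08 and 0 ± 0.07, and Fzd5 0.25 ± 0.1 and 0.09 ± 0.15 in the same order. Lrp5 was at -0.34 ± 0.19 (SE) and -0.25 ± 0.12 (SE). Fzd3 and Fzd4 fell short of the threshold in proximal colon at -0.39 ± 0.13 (SE, adjusted p = 0.0617) and -0.41 ± 0.13 (SE, adjusted p = 0.0575), and DESeq2 called both (adjusted p = 0.0261 and 0.0181). Ror1, a receptor of the Wnt5a type of signal, had 0.76 ± 0.24 (SE, adjusted p = 0.0841) in distal colon, where it was called by DESeq2 (adjusted p = 0.0244), with control mice without Cre alone (1.05, adjusted p = 0.0255) and without control replicate 1 (adjusted p = 0.0307). Fzd9 was at -0.77 ± 0.27 (SE, adjusted p = 0.0792) in proximal and -1.75 ± 0.58 (SE, adjusted p = 0.1) in distal colon, and DESeq2 called both (adjusted p = 0.0389 and 0.0401). The distal value was also called with control mice without Cre alone (-2.24, adjusted p = 0.00795) and without control replicate 1 (adjusted p = 0.0471) or 6 (adjusted p = 0.0456), and the proximal one without control replicate 3 (adjusted p = 0.0338) or deficient replicate 2 (adjusted p = 0.0472).

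**Figure D4:**
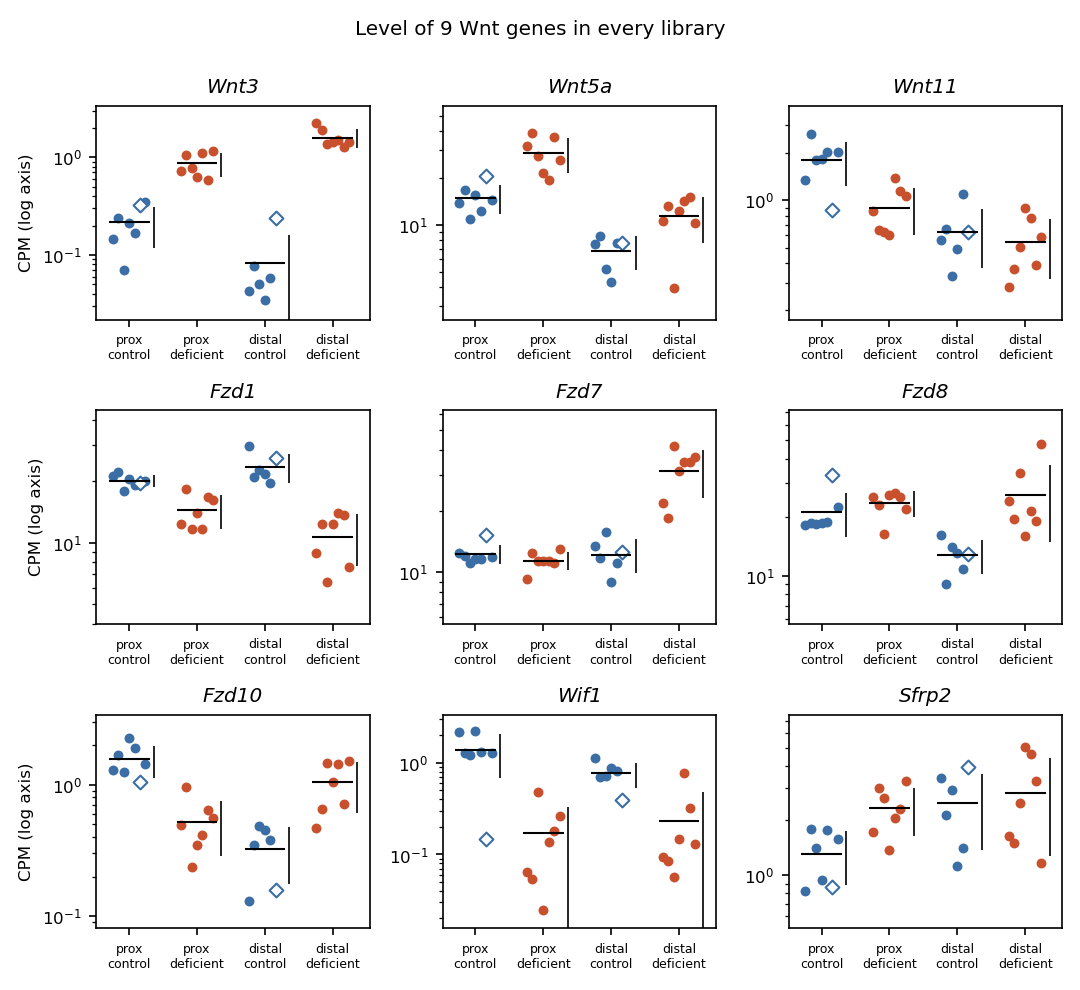
CPM of 9 Wnt genes in every library on log axes; black horizontal bars are means, vertical bars are mean ± SD (those that leave the panel reach 0 or below), and open diamonds mark control replicate 6. The distal deficient libraries are the highest for Wnt3 and Fzd7, and control replicate 6 lies near the deficient libraries for proximal Wif1.

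Wif1 encodes a secreted protein that binds Wnt ligands and keeps them from their receptors. It had 0.149, 1.29 and 2.24 CPM as lowest, median and highest proximal control values and 0.025, 0.138 and 0.475 CPM in proximal deficient libraries. Of the 7 control libraries 6 were above every deficient one, and replicate 6 was within the deficient range. The log2 fold change was -2.97 ± 0.55 (SE, adjusted p = 0.00165). In distal colon the control values were 0.396, 0.762 and 1.12 CPM and the deficient values 0.0561, 0.13 and 0.768 CPM, a log2 fold change of -1.73 ± 0.51 (SE, adjusted p = 0.061). Deficient replicate 5 was the high distal library, and without it the value was -2.43 (adjusted p = 0.00246). In both segments too few deficient libraries reached the low-count filter for Wif1 to pass without the control ones. That Wif1 was tested between genotypes thus depended on the group where it is high.

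Wif1 has a pair of protein-coding transcripts and 1 transcript with a retained intron, and the drop was seen in both kinds. Summed over libraries, the coding transcripts had 324 estimated counts in proximal control and 19.9 in proximal deficient colon, and the retained-intron transcript had 148 and 37.1. In distal colon the coding transcripts had 91.2 and 28.8. The upstream stretch up to the first annotated exon (chr10:121033754-121033959, plus strand) holds neither forkhead core as searched. The related letters TGTTTAT, in capitals, were searched together with TGTTTGC after the sequences had been seen; 8.22% of all promoters and 5 of the 35 member promoters hold one of the pair.
Wif1: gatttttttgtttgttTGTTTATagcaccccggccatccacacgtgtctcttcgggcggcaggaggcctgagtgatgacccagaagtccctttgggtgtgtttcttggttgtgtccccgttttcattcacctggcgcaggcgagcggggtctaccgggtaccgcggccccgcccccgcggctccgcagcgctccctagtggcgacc

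Sfrp2, a Frizzled-like Wnt-binding protein of stromal cells, was at 0.82, 1.41 and 1.8 CPM in proximal control and 1.37, 2.32 and 3.29 CPM in proximal deficient libraries. The ranges overlapped and the log2 fold change was 0.85 ± 0.24 (SE, adjusted p = 0.0305). This was the least stable call, lost under 12 of 23 alternatives with adjusted p from 0.05 to 0.162, among them leaving out control replicate 1 (0.0623), 4 (0.0642) or 6 (0.0506), or deficient replicate 2 (0.0625), 3 (0.0599), 6 (0.05) or 7 (0.0692). In distal colon its log2 fold change was 0.2 ± 0.39 (SE, adjusted p = 0.833). Dkk2, Dkk3, Frzb, Sfrp1 and Sfrp4 were not called in either genotype comparison, nor was Sfrp5 in proximal colon, where alone it was tested.

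Control replicate 6 carried Villin1-Cre with both Foxa1 alleles floxed and 1 wild-type Foxa2 allele. Of the 9 members called in proximal colon it was the control library nearest to the deficient side for 5, Wnt5a, Wnt9a, Wnt11, Fzd10 and Wif1. Over all 1962 genes called there it was the nearest control library for 38.6%, and the other 6 control libraries for 6.47% to 18.1% each. In distal colon it was nearest for 1 of 5 members, Wnt3, and for 29.2% of the 973 genes called, where the other 5 libraries had 8.74% to 23.4%. With 1 such mouse there was no test, and its age of 18 months was shared by control replicates 5 and 7.

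The segments of control mice themselves differed in Wnt gene levels. Proximal colon had more Wnt5a, Wnt11, Fzd2, Fzd3, Fzd8, Fzd10, Ror2 and Ryk, and distal colon more Rspo3, Lrp6, Ror1 and Frzb. These are 8 lower and 4 higher of 32 members tested in the 6 control mice with both segments, blocked by mouse, against 22.3% lower and 21.5% higher among 16507 genes. The shares of members, 25% lower and 12.5% higher, are near the background for lower calls and under it for higher ones. All distal libraries share 1 value of transcript length minus effective length, and the proximal ones have their own values of 214.56 to 245.61 bases, so segment and quantification setting cannot be told apart.

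Fzd3, a Frizzled with a role in axon guidance, had 13.7, 16.1 and 19.1 CPM in the 7 proximal control libraries and 0.735, 3.78 and 5.71 CPM in the 6 distal ones. The ranges were far apart, and the distal log2 fold change was -2.42 ± 0.35 (SE, adjusted p = 0.000607). Fzd10 had -2.27 ± 0.26 (SE, adjusted p = 0.000199), Wnt11 -1.49 ± 0.29 (SE, adjusted p = 0.0031) and Wnt5a -1.14 ± 0.16 (SE, adjusted p = 0.000508). Among the distal-enriched genes Frzb, a secreted Frizzled-related inhibitor, had 0.677 to 1.36 CPM in proximal and 1.21 to 5.11 CPM in distal control colon, a log2 fold change of 1.45 ± 0.26 (SE, adjusted p = 0.00191). Smaller differences were those of Fzd8 (-0.71 ± 0.15), Fzd2 (-0.85 ± 0.2), Ror2 (-0.88 ± 0.18), Ryk (-0.28 ± 0.08), Lrp6 (0.66 ± 0.14), Ror1 (0.87 ± 0.24) and Rspo3 (0.63 ± 0.21, all log2 ± SE). The Rspo3 call was lost without control replicate 2 (adjusted p = 0.073), 4 (0.0742), 5 (0.0842) or 6 (0.0752). Without control replicate 6, Wif1 was called lower in distal colon (log2 fold change -0.94, adjusted p = 0.00859).

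In the 7 deficient mice 13 of 33 members (39.4%) were lower and 6 (18.2%) higher in distal colon, against 22.4% lower and 22.7% higher among 16514 genes. Higher were Wnt3, Fzd6, Fzd7, Lrp6, Ror1 and Frzb. Lower were Wnt2b, Wnt4, Wnt5a, Wnt5b, Fzd1, Fzd2, Fzd3, Fzd5, Fzd9, Ror2, Ryk, Dkk3 and Sfrp1. Ror1 ran from 1.73 over a median of 1.92 to 2.97 CPM proximally and from 5.68 over 7.11 to 11.4 CPM distally, with no overlap, and had a log2 fold change of 1.83 ± 0.18 (SE, adjusted p = 4.94e-05). Fzd3 had 8.38 to 16.4 CPM in proximal and 2.35 to 6.49 CPM in distal deficient libraries (log2 fold change -1.7 ± 0.16, SE, adjusted p = 4.7e-05). Wnt5a had -1.39 ± 0.23 (SE, adjusted p = 0.001), Wnt5b -0.93 ± 0.25 (SE, adjusted p = 0.0127), Fzd7 1.42 ± 0.14 (SE, adjusted p = 5.47e-05) and Wnt3 0.89 ± 0.21 (SE, adjusted p = 0.00648). Fzd10, which was lower distally in control mice, had 0.97 ± 0.39 (SE, adjusted p = 0.0639) in deficient mice.

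**Figure D5:**
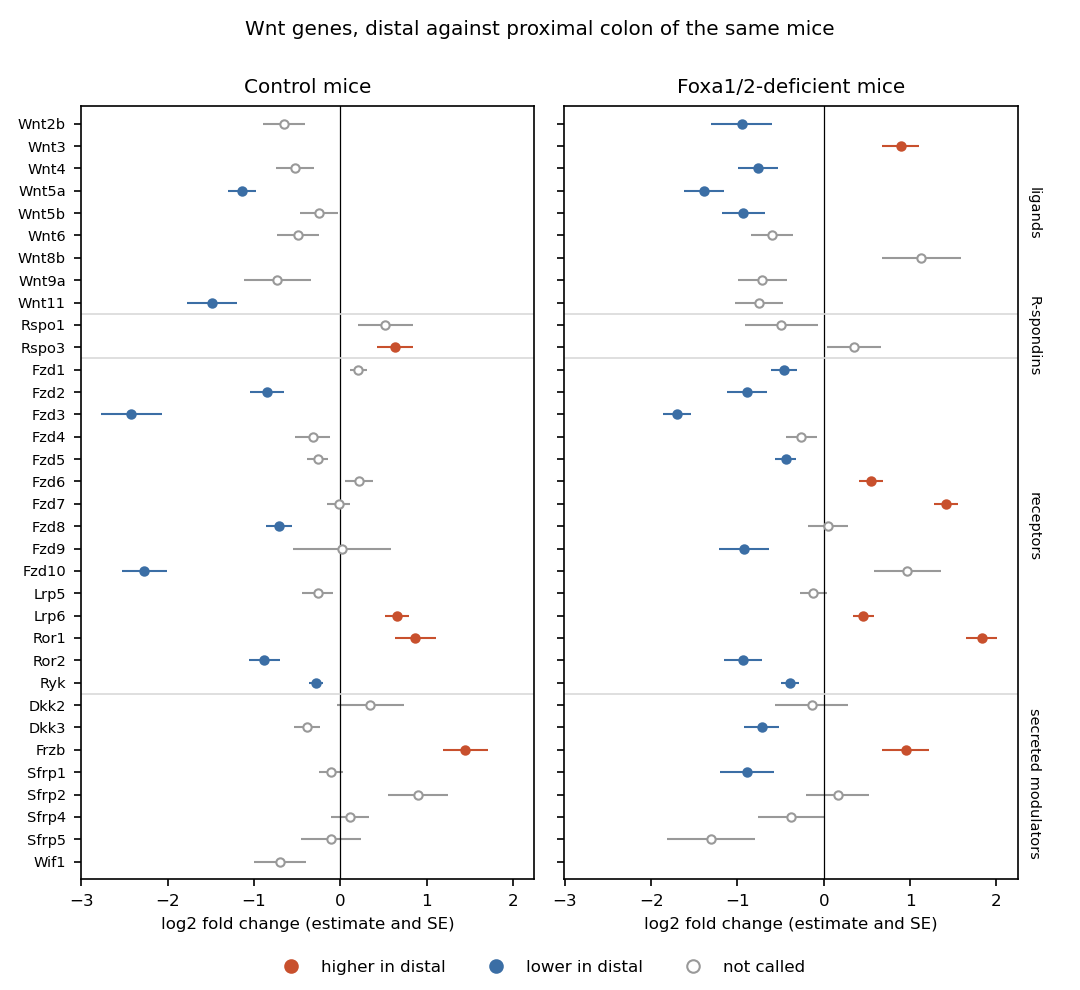
Log2 fold changes, distal against proximal colon of the same mice, with standard errors, in control (left) and Foxa1/2-deficient mice (right); a gene with no point in a panel was not tested there. Fzd3 and Wnt5a are to the left in both panels, while Fzd10 is to the left in control mice and Wnt3 and Fzd7 are to the right in deficient mice.

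Several of these segment calls depended on single mice or on the model. Leaving out 1 deficient mouse ended the call of Wnt2b (without replicate 1, 2, 3, 4, 6 or 7), Wnt4 (1, 2, 3 or 7), Fzd1 (1, 2, 3, 6 or 7), Fzd9 (3, 4 or 6), Dkk3 (7) and Sfrp1 (1, 2, 3, 6 or 7). Over all alternatives that ended them, adjusted p ran from 0.0554 to 0.111 for Wnt2b, 0.0537 to 0.0642 for Wnt4, 0.0531 to 0.0923 for Fzd1, 0.0563 to 0.0759 for Fzd9 and 0.0592 to 0.112 for Sfrp1, and was 0.0528 for Dkk3. Frzb lost its call with a transcript-length offset (adjusted p = 0.213).

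Other genes of the pathway were called in both directions; over all genes tested 5.52% were higher and 6.17% lower in proximal colon, and 2.7% and 3.37% in distal colon. Of 16 genes of Wnt secretion and receptor turnover, 15 were tested in proximal colon with 1 higher and 4 lower, and 14 in distal colon with 1 higher and 2 lower. Lgr4, a broad R-spondin receptor, fell by 0.58 ± 0.09 (SE, adjusted p = 0.000385) in proximal and by 0.69 ± 0.16 (SE, adjusted p = 0.0185) in distal colon on the log2 scale. Lgr5, the R-spondin receptor that marks crypt stem cells, rose by 0.85 ± 0.18 (SE, adjusted p = 0.00462) and 1.54 ± 0.39 (SE, adjusted p = 0.0302). Porcn, which attaches the lipid to Wnt proteins, fell in both segments, from 2.14 to 1.45 CPM proximally and from 1.91 to 1.03 CPM distally (group means, adjusted p = 0.0401 and 0.0286). Tnfrsf19, a Wnt target, and Kremen2, a receptor for Dkk proteins, fell in proximal colon (log2 fold change -1.15 and -1.11, adjusted p = 0.00676 and 0.0234). In distal colon Tnfrsf19 had a log2 fold change of -1.18 (adjusted p = 0.105), and DESeq2 called it lower there.

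Inside the cell, edgeR called 2 of 24 genes of beta-catenin signalling lower in each segment and none higher, a share near that of all genes in proximal colon. They were Tcf7l1, a TCF factor that mostly represses Wnt targets, with log2 fold changes of -1.5 (adjusted p = 5.01e-05) and -1.68 (adjusted p = 0.0103), and Tle1, a co-repressor, with -0.32 (adjusted p = 0.0179) and -0.77 (adjusted p = 0.0084). In distal colon DESeq2 also called Dvl1 higher and Ctnnbip1 lower. With edgeR these had log2 fold changes of 0.24 (adjusted p = 0.0739) and -0.42 (adjusted p = 0.0797). Of 24 Wnt target and crypt genes 7 were lower and 1 higher in proximal colon, and 1 of 23 tested each way in distal colon. Proximal falls included Rgmb (-0.7), the Eph receptor Ephb3 (-1.08), the chloride co-transporter Slc12a2 (-0.68) and the adhesion receptor Cd44 (-0.69, all log2 fold changes). Rgmb was also the gene that edgeR called lower distally (-0.6), where DESeq2 called Tnfrsf19 lower as well. Lgr5 was the one that rose in both. The list's median log2 fold change was -0.27 in proximal and 0 in distal colon, beside 0.01 over all genes in each.

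Among 15 planar polarity genes, edgeR called 1 in each segment: Daam2 was higher in proximal (0.59 ± 0.16, log2 ± SE) and Daam1 lower in distal colon (-0.6 ± 0.16). Both proteins link Wnt signals to the cytoskeleton. In proximal colon DESeq2 called Daam2 higher and 3 genes lower, Vangl1, Celsr1 and Fuz. With edgeR Celsr1 had a log2 fold change of -0.68 (adjusted p = 0.052) and Vangl1 of -0.33 (adjusted p = 0.0555). In distal colon DESeq2 called Daam1 alone. Of 16 other niche signals, edgeR called 4 higher and 1 lower in proximal colon, and 1 higher in distal colon. DESeq2 called 5 higher and 1 lower in proximal colon, and in distal colon Ereg higher and Egf lower. Ereg, an EGF-family growth factor, rose from 8.66 to 27.7 CPM in proximal and from 5.02 to 15.1 CPM in distal colon (group means, log2 fold change 1.69 and 1.6, adjusted p = 2.65e-05 and 0.00842), while Egf fell in proximal colon (log2 fold change -1.51, adjusted p = 3.38e-05). Bmp5, a bone morphogenetic protein, and Pdgfra, a receptor of stromal cells that also counts among the fibroblast markers above, rose proximally by 0.74 and 0.54 on the log2 scale.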

How the data were processed

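Transcript tables of estimated counts and TPM values came from the authors, who used kallisto 0.46.2 after cutadapt 2.5, per the submitters' processing notes, with builds GRCm38 and mm10 named there. Their effective lengths, per the file headers, served for an offset. A log2 CPM matrix per segment was also deposited by the authors; how it was normalized is not stated in the labels. Here 116728 of 119414 transcripts were joined to GENCODE M21, and estimated counts were summed to 35975 genes and rounded. TPM values were summed per gene, and CPM levels use TMM-scaled library totals over all 27 libraries.

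Genes passing filterByExpr were tested with edgeR 4.0.16 in R 4.3.3 (TMM, glmQLFit, glmQLFTest), with Benjamini-Hochberg adjustment over all genes tested and calls at an adjusted p under 0.05. Genotypes were compared within a segment without a block; comparisons of segments, and of the genotype effect between segments, used the 13 mice with both, blocked by mouse. Genes were fitted over the whole table, and the method was tested on simulated data. That simulation changed only genes above a floor of mean counts, so recovery of changes at the lowest counts was not tested. The SE of a log2 fold change was derived from the test, as its absolute value over the square root of the F statistic. It can be too narrow where counts are few. Alternatives were DESeq2 1.42.0, its size factors, no filter, a length offset, limma 3.58.1 on the deposited matrix, a replicate block, subsets of mice and each library left out. Members and gene lists were chosen with earlier results of these data known. Named are all members called in a comparison and the 10 highest by TPM, and of each pathway list at most the 4 called genes of smallest p per segment; other names were chosen after their values were seen. Each mouse is 1 replicate. Promoter sequences are from RefSeq, GRCm38.p6.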

Additional observations from a re-analysis of the deposited data

Results flagged for a closer look

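In 44 groups of libraries, 11 members by 4 groups, 4 libraries stood apart from the rest of their group; such a gap is met by chance in about 1 of 20 groups. Control replicate 6 accounts for 3 of the 4: it was the highest proximal control library for Fzd7 at 15.2 CPM, where the others had 11.1 to 12.5, and for Fzd8 at 32.9 CPM, where the others had 18.2 to 22.5. It was also the highest distal control library for Wnt3 at 0.238 CPM, where the others had 0.0349 to 0.0772. Deficient replicate 5 was the highest distal deficient library for Wif1 at 0.768 CPM, where the others had 0.0561 to 0.323.

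The genotype effect differed between distal and proximal colon for 3 members, by the test of the difference itself. On the log2 scale, distal minus proximal, it was 2.16 for Wnt3, 3.26 for Fzd10 and 1.45 for Fzd7. No explanation for any of these was tested.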

How the results depend on the processing

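No called member changed direction under any alternative run. Of the calls, 5 of 9 in proximal and 3 of 5 in distal colon were kept under every alternative that gave a value, as were 2 of 3 differences between segments, 10 of 12 segment calls in control mice and 12 of 19 in deficient mice. The number of members called in proximal colon was 9, and 5 with limma on the deposited matrix, which gave values for 28 members. In distal colon it was 5, and 8 with DESeq2 and 3 with mice of 9 to 13 months alone. Leaving out 1 library at a time gave 8 to 12 calls in proximal and 5 to 7 in distal colon, and leaving out 1 mouse 2 to 4 for the difference, 11 to 15 in control and 14 to 20 in deficient mice.

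Control and deficient mice share replicate numbers but not mice. Correlations of same-numbered libraries ran from -0.193 to 0.401 in proximal and -0.097 to 0.409 in distal colon, and replicate 2 alone matched its own number best. A replicate block still gave 9 and 5 calls; it ended that of Wnt11 (adjusted p = 0.0579) and added Fzd4 (0.0432). Without the mouse as replicate block the other comparisons gave 3, 12 and 20 calls.

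Depth limits the lowest members: Wnt3 had 16 counts over the 6 distal control libraries, with 4 of them at 3 or fewer, so the size of its distal fold change rests on few reads. Wif1 had 57 counts over the 7 proximal and 46 over the 7 distal deficient libraries.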
